A study of Mus musculus with 4 samples.

Results

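Tuft cells are rare epithelial cells of the intestine, and 34 genes that mark them or serve their chemosensory and signalling functions were described in RNA-seq of mouse intestinal crypts. The 34 genes were chosen by their known roles in tuft cells (chemosensory cascade, eicosanoid and acetylcholine synthesis, transcription factors, surface and cytoskeletal markers) while the difference between the genotypes in these same counts was already known. Differences between the genotypes are therefore given as a description. The count table had 53845 rows, 17504 of them passed the filter on low counts, and 32 of the 34 genes were among those. The libraries came from crypts of C57BL/6 mice, with 2 libraries per genotype. Wild-type (WT) mice were compared with Vil-CREPTKO mice, in which a Cre recombinase under the villin promoter, active across the intestinal epithelium, removes floxed CREPT (CREPT fl/fl, gene symbol Rprd1b). Crypts of the small intestine were freed with EDTA and passed through a strainer to remove villi. The labels name no treatment for either group and give no age. The libraries of a genotype came from 2 mice. The errors below come from the test of each gene, whose estimate of the spread between libraries also draws on all genes tested. They are thus not the spread of a gene's own libraries alone.

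Tuft cells sense the gut lumen. Luminal metabolites bind G protein-coupled receptors, phospholipase C releases calcium, and the cation channel TRPM5 opens in response. The cells secrete IL-25, leukotrienes, prostaglandins and acetylcholine, and IL-25 drives innate lymphoid cells to make IL-13, which in turn expands the tuft cell lineage in worm infection. The transcription factor POU2F3 is required for the lineage. In bulk RNA, fewer tuft cells and less of these transcripts per tuft cell cannot be told apart.

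Total counts ranged from 47241049 to 49369315 per library, and where a gene had 0 counts, up to 3 counts were possible, which is 0.0608 to 0.0635 CPM (counts relative to the library total). Rprd1b, the deleted gene, was at 60.5 and 61.6 CPM in WT and at 26.3 and 29.0 CPM in Vil-CREPTKO crypts, a log2 fold change of -1.14 ± 0.12 (SE, adjusted p = 0.0041, edgeR quasi-likelihood test). It was read over the whole gene, so transcripts without the floxed part may be counted in it. WT replicate 2 stood apart in sex: it had 42463 counts of Xist, against 13 to 26 in the other 3 libraries, so values without it are a comparison among libraries without Xist. The epithelial markers Epcam, Cdh1, Krt8, Vil1 and Cldn7 summed to 6676 and 7733 CPM in WT and to 7199 and 6743 CPM in Vil-CREPTKO, and their ranges overlapped.

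All log2 fold changes (log2FC, ± SE) below are Vil-CREPTKO over WT, and CPM were scaled between libraries by TMM. Of the 32 genes tested, 31 had a negative log2 fold change and 1 (Sucnr1) a positive one. Their median was -0.65, against -0.01 over all 17504 genes tested, of which 50.9% were negative. In 28 of the 32 both Vil-CREPTKO libraries lay below both WT libraries, an order that 24.2% of all genes tested showed, and in none did both lie above, an order that 21% of all genes showed. A gene was called lower at an adjusted p under 0.05 and a log2 fold change under -1. Trpm5, Avil, Plcb2, Tas1r3 and Il17rb met this, 5 of 32, where 1.34% of all genes tested did. At an adjusted p under 0.05 alone, 8 of the 32 were lower, where 2.29% of all genes were. None was higher by either rule, against 0.297% called higher and 0.423% at an adjusted p under 0.05 alone. Since the genes were chosen with this contrast known, nothing is read from those shares.

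Which genes were called depended on the processing and on single libraries. Trpm5 was called in the fit reported here and under each of the 12 alternatives. After correction for GC content and length Trpm5 alone was called. Avil (log2FC -0.94, adjusted p 0.012) and Plcb2 (log2FC -0.92, adjusted p 0.035) then missed only the fold limit (edgeR quasi-likelihood test). The median GC content was 53.6% in the tuft cell genes and 49.4% over all genes tested, and with that correction the median log2 fold change was -0.63. Without WT replicate 1, Plcb2 and Tas1r3 were not called, and Alox5 and Siglecf were. Without WT replicate 2, Avil and Il17rb were not called, and Hpgds was. Leaving out Vil-CREPTKO replicate 1 removed Tas1r3 and Il17rb, added Sh2d6, and left 4 genes rather than 8 at an adjusted p under 0.05. Leaving out Vil-CREPTKO replicate 2 removed Plcb2 only. Over these 4 fits the median over the tuft cell genes ran from -0.78 to -0.59.

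**Figure D1:**
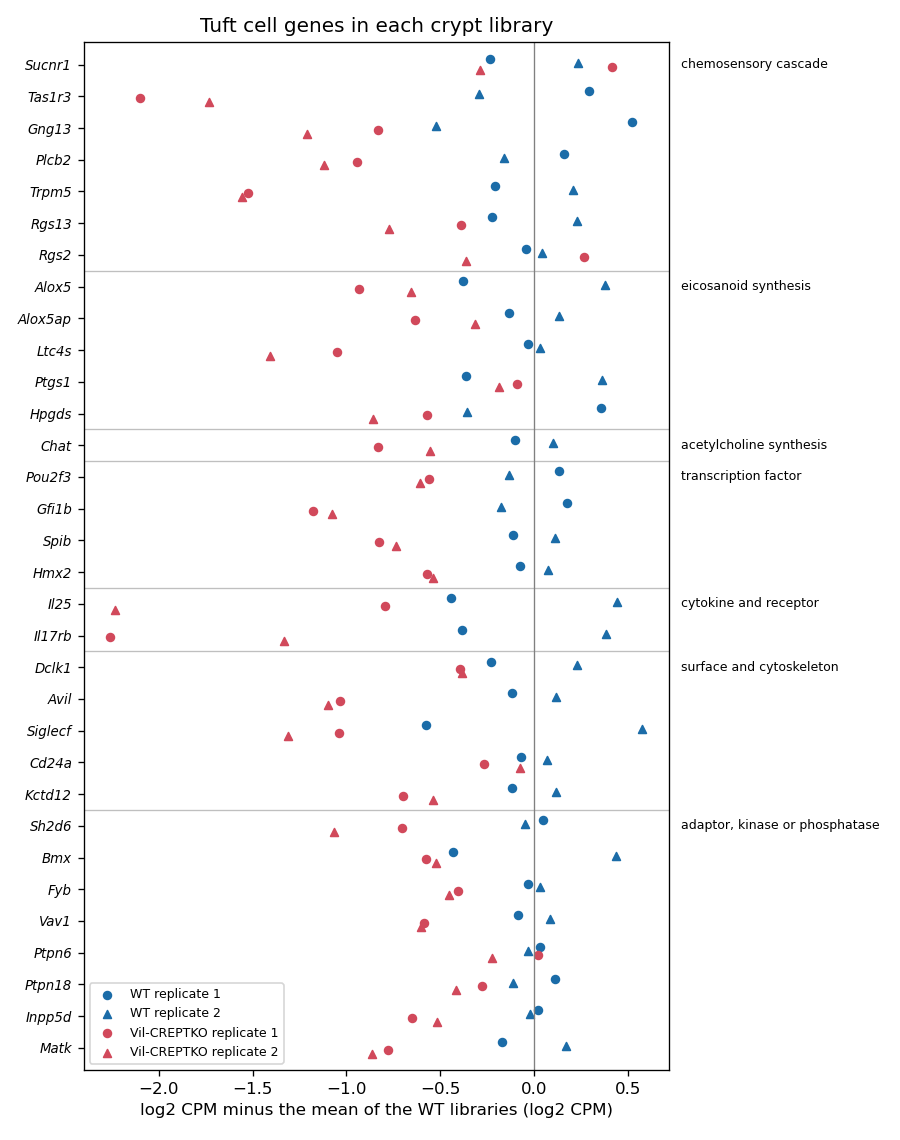
Each row is a tuft cell gene, grouped by role, and each point is the log2 CPM of 1 library minus the mean log2 CPM of the WT libraries (blue, WT; red, Vil-CREPTKO; circles, replicate 1; triangles, replicate 2). Red points lie to the left of both blue points in 28 of the 32 genes tested. They overlap the blue points for Sucnr1, Rgs2, Ptgs1 and Ptpn6. The lowest log2 fold changes were those of Tas1r3, Il17rb and Trpm5.

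The chemosensory cascade held 3 of the 5 called genes, out of 7 of its genes tested, where 1.34% of all genes were called lower. Trpm5, the calcium-activated cation channel at its end, was at 52.6 and 70.3 CPM in WT and at 21.1 and 20.7 CPM in Vil-CREPTKO. The Vil-CREPTKO libraries lay close together and far below both WT libraries, and the mean was 34.01% of the WT mean (log2FC -1.56 ± 0.16). Plcb2, the phospholipase that produces inositol trisphosphate upstream of TRPM5, was at 19.2 and 15.4 CPM in WT and at 8.93 and 7.90 CPM in Vil-CREPTKO (log2FC -1.04 ± 0.18). Tas1r3, a subunit shared by the sweet and umami taste receptors, had 148 and 95 counts in WT and 24 and 35 in Vil-CREPTKO. Its log2 fold change of -1.93 ± 0.40 was the lowest of all 32 genes, on few counts and with a wide error. The call was lost under RLE scaling, upper-quartile scaling and the GC correction, where the log2FC stayed at -1.91, -1.90 and -1.79 and the adjusted p was 0.051 to 0.064 (edgeR).

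The G protein subunits were near the floor. Gnat3, the alpha subunit gustducin, had 4 and 15 counts in WT and 8 and 1 in Vil-CREPTKO, and the groups overlapped. Gnb3, a beta subunit, had at most 1 count in any library, so no fold is given. Both failed the filter on low counts. Gng13, a gamma subunit, had 45 and 21 counts in WT and 15 and 13 in Vil-CREPTKO (log2FC -1.10 ± 0.61), with an error too wide to place the size. Without WT replicate 1 the value was -0.49, and without WT replicate 2 it was -1.53. Gng13 shares 481 bases with Chtf18 on the opposite strand, and Chtf18 was itself called lower (log2FC -1.02 ± 0.17).

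The remaining genes of the cascade were less shifted or not shifted. Rgs13, a regulator that speeds GTP hydrolysis by G proteins, was at 16.3 and 22.3 CPM in WT and at 14.6 and 11.2 CPM in Vil-CREPTKO (log2FC -0.58 ± 0.21). Its lowest WT library stood just above the highest Vil-CREPTKO library, and without WT replicate 2 the value was -0.34. Rgs2, a related regulator, was at 13.0 and 13.7 CPM in WT and at 16.0 and 10.4 CPM in Vil-CREPTKO, so the Vil-CREPTKO libraries lay on either side of WT (log2FC -0.02 ± 0.22). Sucnr1, the receptor for succinate, had 27 and 36 counts in WT and 36 and 25 in Vil-CREPTKO (log2FC 0.08 ± 0.52), and its groups overlapped fully. The sign for Sucnr1 and for Rgs2 turned with the scaling.

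The 300 bases around the start sites of the 4 called genes with the highest expression (250 before the start and 50 after it) are shown as the regions nearest to where transcription of called genes begins. They are RefSeq sequences on GRCm38.p6. RefSeq promoters were found for 29 of the 34 genes (33 promoters). The genes without one were Alox5ap, Cd24a, Gnb3, Il25 and Pou2f3. Capitals mark ATGCAAA or its reverse complement, the first 7 letters of the octamer ATGCAAAT that POU factors such as POU2F3 bind.
Trpm5 promoter, chr7:143094593-143094892, minus strand: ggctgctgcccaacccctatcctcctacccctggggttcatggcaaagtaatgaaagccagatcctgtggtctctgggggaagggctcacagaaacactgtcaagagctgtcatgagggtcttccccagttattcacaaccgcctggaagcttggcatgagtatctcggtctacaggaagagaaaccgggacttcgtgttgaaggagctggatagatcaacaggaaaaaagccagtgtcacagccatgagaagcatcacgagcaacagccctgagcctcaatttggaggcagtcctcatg
Avil promoter, chr10:127000459-127000758, plus strand: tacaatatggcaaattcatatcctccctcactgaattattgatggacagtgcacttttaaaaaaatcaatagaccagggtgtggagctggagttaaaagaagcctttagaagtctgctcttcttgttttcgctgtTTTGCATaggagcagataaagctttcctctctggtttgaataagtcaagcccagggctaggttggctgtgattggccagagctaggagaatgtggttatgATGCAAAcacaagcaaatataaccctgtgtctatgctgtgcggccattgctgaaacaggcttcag
Plcb2 promoter, chr2:118728389-118728688, minus strand: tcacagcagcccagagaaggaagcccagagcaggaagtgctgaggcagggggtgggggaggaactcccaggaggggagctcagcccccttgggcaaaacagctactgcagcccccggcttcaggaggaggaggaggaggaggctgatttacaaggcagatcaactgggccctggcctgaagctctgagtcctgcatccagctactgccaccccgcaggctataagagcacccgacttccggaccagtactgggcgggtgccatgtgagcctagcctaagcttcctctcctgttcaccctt
Il17rb promoter, chr14:30008847-30009146, minus strand: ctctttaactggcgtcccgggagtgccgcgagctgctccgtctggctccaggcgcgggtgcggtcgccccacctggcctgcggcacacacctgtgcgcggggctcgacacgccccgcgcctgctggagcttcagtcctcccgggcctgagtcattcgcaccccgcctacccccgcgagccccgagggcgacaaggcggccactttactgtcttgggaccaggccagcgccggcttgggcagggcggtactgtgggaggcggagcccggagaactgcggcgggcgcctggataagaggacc
The Avil window held 2 matches, at -115 (on the other strand) and at -15 from the start site, and the other 3 windows held none.

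The motifs were chosen after the differences had been seen, and matches are a description of letters. On either strand, ATGCAAA occurred in a promoter of 5 of the 29 genes (Avil, Hpgds, Kctd12, Rgs2 and Sucnr1) and in 4.63% of 32851 mouse promoters of the same length. The full octamer ATGCAAAT, each of whose matches is also a match to ATGCAAA, occurred in 3 of the 29 (Sucnr1, Hpgds and Kctd12) and in 1.74% of all promoters. GAGGAAGT is a motif of the SPI family of ETS factors, to which SPIB belongs. It occurred in 4 of the 29 (Hpgds, Inpp5d, Ptgs1 and Vav1) and in 3.20% of all promoters. Those counts are by gene, while the shares over all are by promoter. By promoter, ATGCAAA was in 5 of 33, the full octamer in 3 of 33 and GAGGAAGT in 4 of 33. The octamer windows are printed, with the octamer in capitals, to show the letters around it in the 3 genes.
Sucnr1, chr3:60081810-60081839, plus strand: ggctgcataatATGCAAATcagactgcact
Hpgds, chr6:65144886-65144915, minus strand: ctttactctttATGCAAATacgttggacta
Kctd12, chr14:102982779-102982808, minus strand: cagcgtttagcATGCAAATgcattccccgc
Their octamers start at -48, -174 and -160 from the start site. The log2 fold changes of the same genes were 0.08 ± 0.52 for Sucnr1, -0.75 ± 0.26 for Hpgds (-0.35 without WT replicate 1) and -0.62 ± 0.14 for Kctd12. The differences between these 3 genes were not tested.

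**Figure D2:**
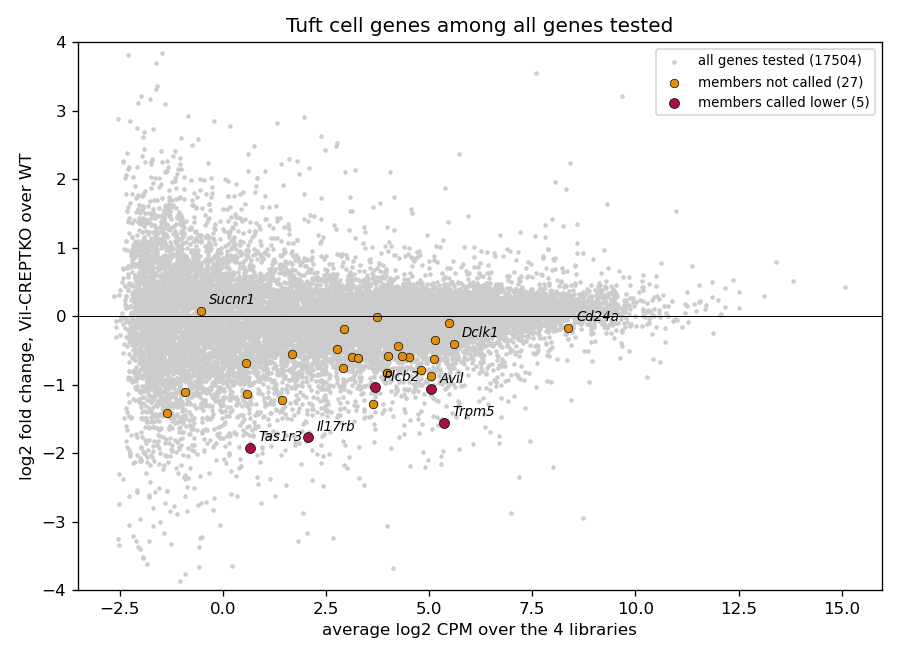
Log2 fold change of Vil-CREPTKO over WT (vertical) against average log2 CPM (horizontal) for all 17504 genes tested (grey), with the 27 tuft cell genes not called in orange and the 5 called lower in dark red. All but Sucnr1 lie below 0, and the called genes span the range of expression from Tas1r3 to Trpm5. The axis ends at 4 in either direction, which leaves out 20 genes, none of them a tuft cell gene.

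Of the 5 genes of eicosanoid synthesis, 4 were lower without overlap, as were 24.2% of all genes tested, and none was called. Ltc4s, which joins glutathione to leukotriene A4, was at 3.64 and 3.80 CPM in WT and at 1.79 and 1.41 CPM in Vil-CREPTKO (log2FC -1.22 ± 0.30). The WT libraries almost coincided, at more than the level of either Vil-CREPTKO library. Alox5, the 5-lipoxygenase that opens the pathway, was at 15.0 and 25.3 CPM in WT and at 10.2 and 12.4 CPM in Vil-CREPTKO (log2FC -0.83 ± 0.24). Its log2FC was -0.41 without WT replicate 2 and -1.16 without WT replicate 1. Alox5ap, which presents arachidonic acid to it, was at 7.07 and 8.51 CPM in WT and at 4.99 and 6.23 CPM in Vil-CREPTKO (log2FC -0.47 ± 0.22). All 3 leukotriene genes were without overlap between the genotypes. Hpgds, the prostaglandin D synthase, was at 11.7 and 7.11 CPM in WT and at 6.12 and 5.03 CPM in Vil-CREPTKO, again without overlap. Its log2FC of -0.75 ± 0.26 was -0.35 without WT replicate 1 and -1.06 without WT replicate 2. Ptgs1, the cyclooxygenase COX-1, was at 6.07 and 10.02 CPM in WT and at 7.32 and 6.84 CPM in Vil-CREPTKO, so that both Vil-CREPTKO libraries lay between the WT libraries (log2FC -0.18 ± 0.25). Chat, which makes acetylcholine, had 84 and 93 counts in WT and 43 and 59 in Vil-CREPTKO (log2FC -0.69 ± 0.37).

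All 4 transcription factors were lower without overlap, as were 24.2% of all genes tested. Their log2 fold changes were -1.13 to -0.56, and none was called. Pou2f3, on which the lineage depends, was at 11.3 and 9.41 CPM in WT and at 7.02 and 6.78 CPM in Vil-CREPTKO (66.5% of the WT mean, log2FC -0.59 ± 0.19). The Vil-CREPTKO libraries were close to each other and under both WT libraries. Spib, an ETS factor of tuft cells that M cells and B cells also use, was at 32.7 and 38.3 CPM in WT and at 19.95 and 21.2 CPM in Vil-CREPTKO. Its log2 fold change of -0.79 ± 0.14 was past an adjusted p of 0.05 but not past the fold limit. Gfi1b, a zinc finger repressor, had 114 and 86 counts in WT and 38 and 46 in Vil-CREPTKO (log2FC -1.13 ± 0.37). Hmx2, a homeobox factor, had 182 and 195 counts in WT and 110 and 127 in Vil-CREPTKO (log2FC -0.56 ± 0.26).

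The M cell markers gave values of their own beside Spib. Of the M cell list, Ccl9 was at 47.3 and 29.0 CPM in WT and at 17.7 and 20.2 CPM in Vil-CREPTKO, Ccl20 and Tnfaip2 were higher in both Vil-CREPTKO libraries, and Gp2 had at most 17 counts. Their part in the value of Spib was not tested.

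Il25 and its receptor gene Il17rb made up the role with the lowest median, -1.59. Il25 had 18 and 32 counts in WT and 12 and 5 in Vil-CREPTKO (log2FC -1.41 ± 0.73). The order of the libraries was without overlap, but at these counts the error spans much of the difference. Without single libraries the value ran from -2.27 (without Vil-CREPTKO replicate 1) to -0.85 (without Vil-CREPTKO replicate 2). Il17rb, a chain of the IL-25 receptor, had 241 and 396 counts in WT and 56 and 120 in Vil-CREPTKO, or 4.72 and 8.05 CPM against 1.29 and 2.44 CPM. The mean was 29.2% of the WT mean (log2FC -1.77 ± 0.38). Il17rb lost its call under RLE scaling, upper-quartile scaling and the GC correction, where the log2FC stayed at -1.75, -1.73 and -1.69 and the adjusted p was 0.056 to 0.066 (edgeR). Its gene body overlaps that of Actr8 on the opposite strand over 10220 bases, and Actr8 was lower too, with a log2 fold change of -0.80 ± 0.14. Whether counting used the strand is not stated, so reads of the pair could be shared.

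The surface and cytoskeletal markers were unequal. Avil, advillin, an actin-binding protein of the apical tuft, was at 41.0 and 48.2 CPM in WT and at 21.7 and 20.7 CPM in Vil-CREPTKO (47.6% of the WT mean, log2FC -1.07 ± 0.14). Dclk1, the kinase most used to stain tuft cells, was at 46.3 and 63.7 CPM in WT and at 41.4 and 41.7 CPM in Vil-CREPTKO (75.4% of the WT mean, log2FC -0.41 ± 0.16). WT replicate 1 of Dclk1 stood only a little above the Vil-CREPTKO libraries. Without WT replicate 2 its log2 fold change was -0.16, and without WT replicate 1 it was -0.62. Siglecf, a sialic acid-binding lectin also known from eosinophils, was at 10.9 and 24.2 CPM in WT and at 7.89 and 6.52 CPM in Vil-CREPTKO (log2FC -1.28 ± 0.33). WT replicate 2 was far above WT replicate 1, and without it the value was -0.59. The eosinophil genes Epx and Prg2 had at most 5 counts in a library. Kctd12, an auxiliary subunit of GABA-B receptors, was at 38.5 and 45.3 CPM in WT and at 25.7 and 28.8 CPM in Vil-CREPTKO (log2FC -0.62 ± 0.14). Cd24a, a surface glycoprotein that stem and Paneth cells also carry, was at 336 and 368 CPM in WT and at 292 and 333 CPM in Vil-CREPTKO. It was the most abundant of the 34 and among the least different (log2FC -0.17 ± 0.16, and -0.08 without Vil-CREPTKO replicate 1).

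Other called genes also have a partner on the opposite strand. Tsfm overlaps Avil over 9423 bases and Tssc4 overlaps Trpm5 over 1845 bases. Dvl1 overlaps Tas1r3 over 36 bases. Tsfm was at a log2FC of 0.14 ± 0.12, Tssc4 at -0.24 ± 0.14 and Dvl1 at -0.53 ± 0.12, all nearer to 0 than their partners.

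The adaptors, kinases and phosphatases act downstream of immune-type receptors, and all 8 had negative values. Of these, 7 were lower without overlap, as were 24.2% of all genes tested. Sh2d6, an SH2 domain adaptor, was at 44.2 and 41.3 CPM in WT and at 26.3 and 20.4 CPM in Vil-CREPTKO (log2FC -0.87 ± 0.15). Matk, a kinase that restrains SRC family kinases, was at 17.8 and 22.6 CPM in WT and at 11.7 and 11.02 CPM in Vil-CREPTKO (log2FC -0.83 ± 0.17). Both were past an adjusted p of 0.05 and short of the fold limit. Bmx, a TEC family kinase, was at 8.25 and 15.1 CPM in WT and at 7.48 and 7.76 CPM in Vil-CREPTKO, with WT replicate 1 just above the Vil-CREPTKO libraries. Its log2FC of -0.61 ± 0.27 was -0.11 without WT replicate 2 and -0.98 without WT replicate 1. Vav1, an exchange factor for small GTPases, Inpp5d, the inositol phosphatase SHIP1, and Fyb, an adaptor, had log2 fold changes of -0.60 ± 0.14, -0.58 ± 0.14 and -0.43 ± 0.14. In each of the 3 the libraries of a genotype lay close together and the genotypes apart. Ptpn18, a tyrosine phosphatase, was at 42.2 and 36.1 CPM in WT and at 32.2 and 29.3 CPM in Vil-CREPTKO (log2FC -0.35 ± 0.13). Ptpn6, the phosphatase SHP-1, was at 46.9 and 44.9 CPM in WT and at 46.5 and 39.3 CPM in Vil-CREPTKO, with overlap (log2FC -0.10 ± 0.13).

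To compare levels between genes, counts were divided by exon length and scaled so that every library has the same sum (TPM). In WT, mean levels ran from 335 TPM for Cd24a to 0.92 TPM for Chat among the 32 genes tested. After Cd24a came Sh2d6 with 62.4 TPM, Ptpn6 with 40.4 TPM, Avil with 32.2 TPM, Spib with 30.4 TPM and Rgs13 with 28.5 TPM. Avil, Spib and Rgs13 overlapped between the WT libraries, so their order is not resolved. Trpm5 followed with 23.5 TPM and Dclk1, a longer gene, stood at 8.80 TPM. The levels in Vil-CREPTKO kept Cd24a first with 264 TPM, but Ptpn6 with 33.0 TPM then stood above Sh2d6 with 29.7 TPM, and Trpm5 was at 7.09 TPM, close to Dclk1 with 5.89 TPM.

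**Figure D3:**
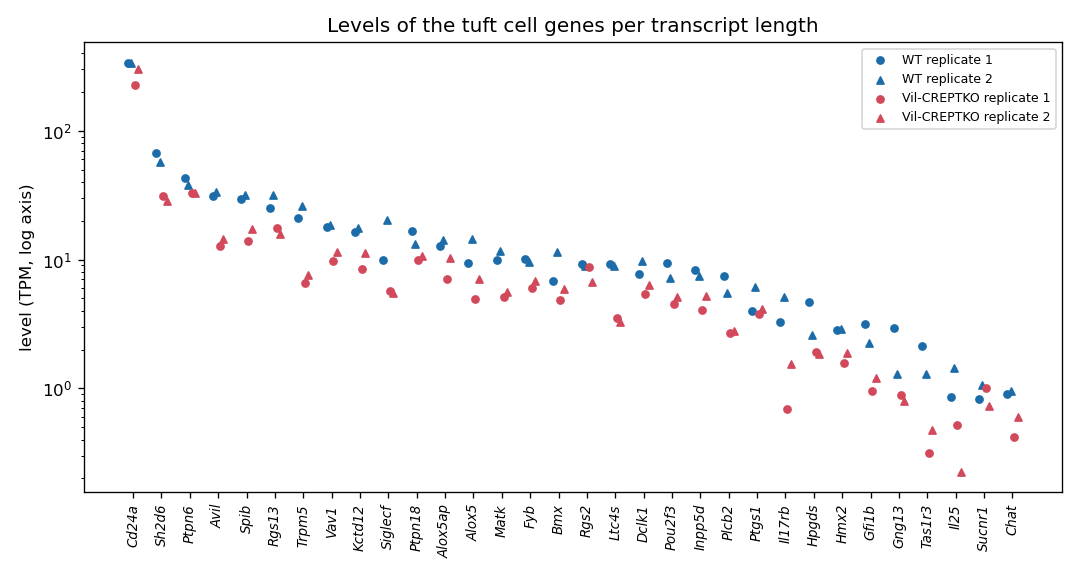
Level of each tuft cell gene tested in TPM on a log axis, ordered by the WT mean, with 1 point per library (blue, WT; red, Vil-CREPTKO; circles, replicate 1; triangles, replicate 2). Levels span from 335 TPM for Cd24a to 0.92 TPM for Chat in WT, and the gap between the colours varies from gene to gene at every level.

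A ratio to Dclk1 within a library does not depend on the scaling between libraries. Dclk1 was taken as the reference after the values were seen. Trpm5 had 114 and 110.3 counts per 100 counts of Dclk1 in WT and 51.1 and 49.6 in Vil-CREPTKO. The WT libraries agreed closely here although each gene by itself differed between them. Avil stood at 88.5 and 75.6 counts per 100 of Dclk1 in WT and at 52.6 and 49.7 in Vil-CREPTKO. Il17rb stood at 10.2 and 12.6 in WT and at 3.12 and 5.86 in Vil-CREPTKO. Of the 31 other genes tested, 17 were lower relative to Dclk1 in both Vil-CREPTKO libraries than in both WT libraries, as were 7.08% of all genes tested. In 2 (Ptgs1 and Sucnr1) both were higher, as in 49.2% of all genes, and 12 overlapped. Dclk1 itself was lower in Vil-CREPTKO, which raises the ratio of every gene. Pou2f3 was among those that overlapped, at 24.5 and 14.8 in WT and at 17.0 and 16.3 in Vil-CREPTKO. The tuft cell genes therefore differed from Dclk1 by unequal amounts.

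**Figure D4:**
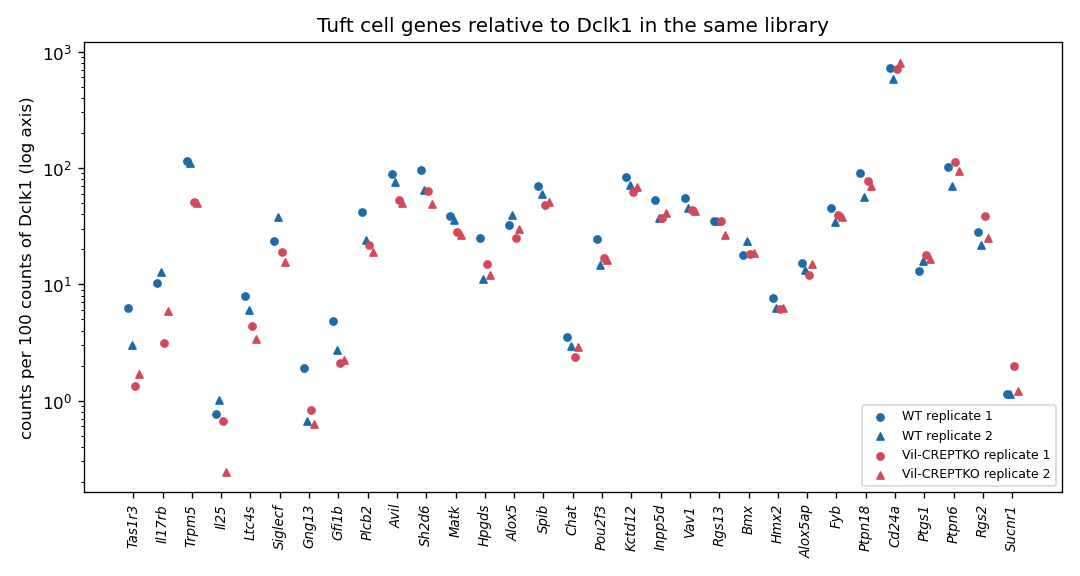
Counts of each tuft cell gene per 100 counts of Dclk1 in the same library on a log axis, with genes ordered by the ratio of Vil-CREPTKO to WT, 1 point per library (blue, WT; red, Vil-CREPTKO; circles, replicate 1; triangles, replicate 2). Trpm5 lies at 114 and 110.3 in WT and at 51.1 and 49.6 in Vil-CREPTKO, while points of Fyb, Ptpn18 and Cd24a overlap.

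Within a genotype the genes varied in 2 ways. Between the WT libraries, 22 of the 32 were higher in WT replicate 2, with a median log2 ratio of 0.18, where 49.7% of all genes tested were higher in that library. Siglecf (1.15), Il25 (0.88), Bmx (0.87), Il17rb (0.77), Alox5 (0.75) and Ptgs1 (0.72) had the highest log2 ratios of WT replicate 2 over WT replicate 1. Gng13 (-1.05), Hpgds (-0.71) and Tas1r3 (-0.59) went the other way. The SD of that ratio over all genes tested was 0.60, which the genes named here exceeded, except Tas1r3. WT replicate 2 is also the library with Xist, and sex and replicate cannot be told apart here. Between the Vil-CREPTKO libraries 13 of 32 were higher in replicate 2, with a median of -0.05. Il25 (-1.44) and Il17rb (0.92) differed most between them.

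Many of these genes are also used by leukocytes, which crypt preparations can contain. Of the 34, 20 are also known from leukocytes, by a division made after the values were seen. The median log2FC of those 20 was -0.60, with 2 calls (Plcb2 and Il17rb). The other 12 that could be tested had a median of -0.78 and 3 calls (Trpm5, Avil and Tas1r3). Over all genes tested, 1.34% were called lower. The difference between these 2 sets was not tested, and nothing is read from it. Of the T cell and intraepithelial lymphocyte markers, 10 of 11 also had negative values, against 50.9% of all genes tested. Their median was -0.41 and none was called. In 4 of 11 both Vil-CREPTKO libraries lay below both WT libraries, where 24.2% of all genes did. Both lay above in 1 (Cd2), where 21% of all genes did. These markers summed to 948 and 745 CPM in WT and to 704 and 588 CPM in Vil-CREPTKO. Gzma alone gave 442 and 355 CPM against 317 and 277 CPM. The T cell markers were higher in WT replicate 1 in 11 of 11, whereas the tuft cell genes were on balance higher in WT replicate 2. Without WT replicate 1 the T cell median was -0.16 and the tuft cell median -0.78. Without WT replicate 2 they were -0.59 and -0.59. Cd2, a T cell marker, went against its list with 11 and 10 counts in WT and 39 and 31 in Vil-CREPTKO.

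The sum of the mast cell markers was highest in WT replicate 1 and that of the myeloid markers in Vil-CREPTKO replicate 1. Kit, Cpa3, Mcpt1 and Mcpt2 had a median of -0.62 that turned to 0.28 without WT replicate 1. Their sum, with Epx and Prg2, was 88.9 and 53.6 CPM in WT and 53.2 and 42.7 CPM in Vil-CREPTKO. The 7 myeloid markers had a median of 0.32, which was -0.40 without Vil-CREPTKO replicate 1, -0.18 without WT replicate 2 and 0.98 without WT replicate 1. They summed to 46.0 and 37.8 CPM in WT and to 56.0 and 32.5 CPM in Vil-CREPTKO. The part of leukocytes in the values of the shared genes was not tested.

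A further 27 genes known from tuft cells, listed for their known expression there with earlier results of these data known, are given beside them. Of the 25 tested, 19 were negative, where 50.9% of all genes tested were, and the median log2 fold change was -0.45. In 14 both Vil-CREPTKO libraries lay below both WT libraries, where 24.2% of all genes did. Both lay above in 5, where 21% of all genes did. Nrgn and Tmem176a were called lower, 2 of 25, against 1.34% of all genes. At an adjusted p under 0.05 alone, 5 were lower, against 2.29% of all genes, and none was higher. Nothing is read from these shares. Without WT replicate 2 the count called was 1 and the median -0.30. Nrgn, neurogranin, a calmodulin-binding protein, had 254 and 509 counts in WT and 94 and 81 in Vil-CREPTKO (log2FC -2.01 ± 0.37). Tmem176a was at 57.5 and 55.3 CPM in WT and at 25.8 and 28.4 CPM in Vil-CREPTKO (log2FC -1.06 ± 0.12), with replicates close together and genotypes far apart. Tmem176b, its neighbour in the same family, had a log2 fold change of -0.67 ± 0.13. Lrmp, an endoplasmic reticulum membrane protein, was at -0.73 ± 0.12, and both were past an adjusted p of 0.05. Ffar3, a receptor for short-chain fatty acids, was the lowest after Nrgn with -1.23 ± 0.39 but was not past an adjusted p of 0.05. The highest values were those of Aldh2 (0.52 ± 0.15), a mitochondrial aldehyde dehydrogenase, Ethe1 (0.31 ± 0.12) and Cd47 (0.28 ± 0.12). Tslp and Tas1r1 had too few counts to be tested, with at most 11 in a library.

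Genes through which tuft cell progenitors receive IL-4 and IL-13 had values near 0. Il4ra had 1838 and 2266 counts in WT and 1522 and 1786 in Vil-CREPTKO (log2FC -0.20 ± 0.15), and the groups overlapped. Il13ra1 stood at -0.11 ± 0.17 and Stat6, the factor that carries the signal to the nucleus, at -0.05 ± 0.13, both with overlap. Il2rg, the shared gamma chain that lymphocytes also use, stood at -0.57 ± 0.24 without overlap. Il13ra2, a decoy receptor, had 0 counts in all 4 libraries. None of these was called.

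**Figure D5:**
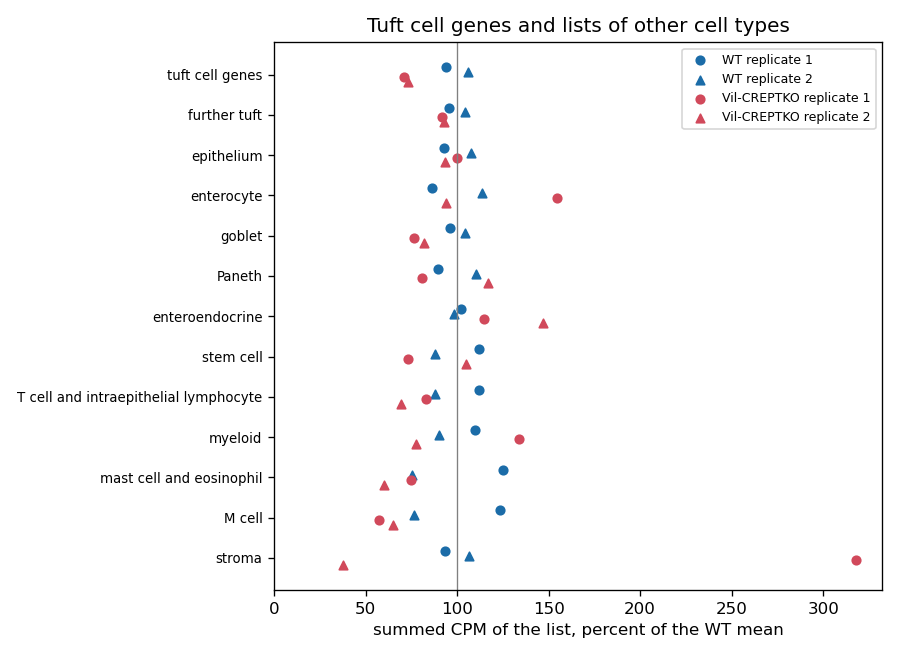
Summed CPM of the tuft cell genes and of lists of markers of other cell types in each library, as percent of the WT mean of the list (blue, WT; red, Vil-CREPTKO; circles, replicate 1; triangles, replicate 2). Both Vil-CREPTKO libraries lie below both WT libraries for the tuft cell genes (688 and 708 CPM against 909 and 1028 CPM). Cd24a gave 292 to 368 CPM of these. The further tuft cell, goblet, T cell, mast cell and M cell sums also lie below. Most of the M cell sum is Ccl9 (17.7 and 20.2 CPM against 47.3 and 29.0 CPM), while Ccl20 and Tnfaip2 were higher. The enteroendocrine sum lies above (312 and 400 CPM against 277 and 267 CPM), although 2 of its 5 genes had negative values. The epithelial and enterocyte sums overlap, and the stromal sum is high in 1 Vil-CREPTKO library only.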

How the data were processed

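The authors deposited whole-number read counts per gene, each library in its own column and unpooled. Per the submitters' processing notes and the study's methods, CASAVA 1.8, Bowtie2 and RSEM were used with GRCm38.p6. How estimates became whole counts, the annotation and the strand setting are not given in the sources used here. Of 53845 rows, 53360 (99.1%) matched GENCODE M21, which gave symbols, coordinates, exon lengths and GC content.

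Tests used edgeR 4.0.16 (R 4.3.3): filterByExpr, TMM scaling, and a quasi-likelihood model with the genotype as its only term (two-sided, Benjamini-Hochberg over 17504 genes). The common coefficient of variation between libraries was 0.188. A simulated data set with known changes was used to test the script. Libraries of a genotype differed far beyond sampling noise (chi-square per gene 49.8 in WT and 70.1 in Vil-CREPTKO), so none is a duplicate. TPM used exon length. Alternatives were other scalings, DESeq2 1.42.0, other filters, a replicate block, a GC and length correction and leaving out each library.

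The members, lists and motifs were chosen with earlier results of these data known. All 34 genes are named. Of the further tuft cell genes, the 3 lowest, the 3 highest and those with an adjusted p under 0.05 are named, and the values of some list members are left out. Promoters are those of at most 4 called genes with the highest expression, and the octamer windows were added after values were seen. Limits on counts of 0 cover counting error only.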

Additional observations from a re-analysis of the deposited data

How the results depend on the processing

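Of the 32 tested genes, 5 were called lower and 8 were at an adjusted p under 0.05. RLE and upper-quartile scaling gave 3 and 5, and the GC and length correction gave 1 and 4. DESeq2 gave 7 and 14, and no filter on low counts gave 7 and 16, with all 34 genes in the fit. Leaving out single libraries gave 4 to 5 called and 4 to 10 at an adjusted p under 0.05. The median log2 fold change ran from -0.78 to -0.59 without single libraries. Calls over all genes tested moved with the setting too. In the fit reported here 235 of 17504 were called lower. This count was 206 with RLE scaling, 183 with upper-quartile scaling and 186 with the GC and length correction. DESeq2 called 313 of all genes lower, and the fit without a filter called 450 of 28324. For the further tuft cell genes the count called was 1 with the GC and length correction and 1 to 3 without single libraries. Their median was -0.54 with library totals alone, -0.31 with the GC and length correction, and -0.47 to -0.30 without single libraries. The cause was not tested.

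Values near 0 turned sign. Sucnr1 was at -0.018 with library totals alone and ran from -0.31 to 0.40 without single libraries. Rgs2 was at 0.0014 with RLE scaling, 0.0015 with DESeq2 and 0.018 with upper-quartile scaling, and ran from -0.37 to 0.27 without single libraries. Ptpn6 was at 0.031 with the GC and length correction and ran from -0.23 to 0.023 without single libraries, and Ptgs1 ran from -0.50 to 0.22.

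With the replicate number as a block, 5 tuft cell genes were called and 10 were at an adjusted p under 0.05. Over all 17504 genes, 269 were called lower with that block. Same-numbered libraries did not deviate together (correlation 0.03, with only 2 pairs), so the number is not taken as a pairing. Library totals alone moved the median of all genes to -0.10. With 2 libraries per genotype, the spread between libraries limits what can be called.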

Other observations

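Other epithelial lineages had values of their own in the same libraries. Enteroendocrine markers, from the other sensory lineage of the crypt, had a median log2 fold change of 0.21 over 5 genes, and 0.07 without Vil-CREPTKO replicate 2. Chgb, a granin of their secretory granules, was at 186 and 182 CPM in WT and at 218 and 291 CPM in Vil-CREPTKO (log2FC 0.47 ± 0.17), and Tph1, which makes serotonin, was at 13.3 and 13.5 CPM against 16.8 and 17.5 CPM (0.36 ± 0.15). Both were higher without overlap and neither was called. Neurog3, the factor of their progenitors, was at 4.49 and 4.41 CPM in WT and at 3.06 and 3.32 CPM in Vil-CREPTKO (-0.48 ± 0.25). Goblet markers had a median of -0.16 (-0.29 to -0.19 without single libraries), with Clca1 at 1656 and 2145 CPM in WT and at 1043 and 1356 CPM in Vil-CREPTKO (-0.66 ± 0.24). Medians of the other lineages turned sign or moved when single libraries were left out. The Paneth median was 0.11 and ran from -0.13 to 0.27, the lowest being without Vil-CREPTKO replicate 2 and the highest without WT replicate 2. The stem cell median was -0.24 and ran from -0.49, if Vil-CREPTKO replicate 2 was omitted, to -0.0049, if Vil-CREPTKO replicate 1 was. The enterocyte median was 0.11 and ran from -0.07, if WT replicate 1 was omitted, to 0.38, if Vil-CREPTKO replicate 2 was. The enteric neuron list had 2 genes that could be tested, with a median of 0.03 (-0.06 to 0.19 without single libraries).

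The stromal genes Col1a1, Col1a2, Col3a1 and Dcn had log2 fold changes of 0.64 to 1.44, which came from Vil-CREPTKO replicate 1. Their sum, with Pdgfra, was 17.3 CPM there, 2.04 CPM in Vil-CREPTKO replicate 2, and 5.07 and 5.79 CPM in WT. Without Vil-CREPTKO replicate 1 the tuft cell median was -0.71.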
